A study of Mus musculus with 40 samples.

Results

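Toll-like receptors are the membrane proteins with which macrophages sense microbial products. The 10 genes described here, *Tlr1*, *Tlr2*, *Tlr3*, *Tlr4*, *Tlr5*, *Tlr6*, *Tlr7*, *Tlr8*, *Tlr9* and *Tlr13*, were found by symbol among the 27179 genes of the expression table, and all 10 were present. They were chosen as a family and not by a rule on their measured levels, though with earlier results of these data known. Poly(A) RNA was sequenced from bone marrow-derived macrophages (BMDMs) of 4 WT and 4 Cpeb4-/- mice, which were left untreated or received 10 ng/ml of E. coli LPS for 1, 3, 6 or 9 hr, giving 40 libraries. All mice were males of a mixed C57BL/6J and 129 background, described only as adult, and the knockout mice (CPEB4-KO in the labels) lacked the gene in the whole animal and not in macrophages alone. Marrow was grown for 7 days in L-cell medium as the source of M-CSF, and the 5 dishes of a mouse shared that mouse's marrow. CPEB4 is an RNA-binding protein that recognises cytoplasmic polyadenylation elements (CPEs) in 3′-UTRs and acts on poly(A) tail length and translation, so the study asked how its loss alters the response to LPS.

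Each receptor recognises a class of ligand. TLR4, with its partners MD-2 and CD14, binds LPS itself. TLR2 pairs with TLR1 or TLR6 to detect bacterial lipopeptides, and TLR5 detects flagellin. These receptors sit at the cell surface. TLR3, TLR7, TLR8, TLR9 and TLR13 sit in endosomes and detect nucleic acids, namely double-stranded RNA (TLR3), single-stranded RNA (TLR7 and TLR8), unmethylated CpG DNA (TLR9) and bacterial ribosomal RNA (TLR13). Nearly all signal through the adaptor MyD88, TLR3 signals through TRIF, and TLR4 uses both.

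The values were regularised log2 counts (rlog), so a difference of 1 is a change by a factor of 2, except that low counts are shrunk towards the gene's mean. All 7 macrophage markers examined were high (mean rlog from 9.66 for *Mertk* to 18.2 for *Lyz2*), while none of the 4 B cell and none of the 4 T and NK cell markers exceeded a mean of 1.36. Of the 5 dendritic cell markers *Xcr1* had the highest mean, 6.04, and of the 6 neutrophil markers *Ngp* had the highest, 3.57. *Cpeb4* itself did not separate the genotypes at 0, 1, 3 or 9 hr. At 6 hr it lay between 10.09 and 10.67 in WT and between 8.74 and 9.66 in Cpeb4-/- BMDMs (difference −1.27, limma adjusted p = 0.0011). A sum over the whole gene cannot tell the remaining exons from an intact transcript, and the genotypes were taken as labelled. WT mice 25 and 88 and Cpeb4-/- mice 3 and 62 formed batch 1 and the others batch 2. No cage held both genotypes, so cage and genotype cannot be told apart.

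Before LPS, the receptors spanned a wide range. On the rlog scale corrected for exon length (rlog minus log2 of the exonic kilobases), the WT means ± SD (n = 4) were 10.61 ± 0.09 for *Tlr2*, 10.35 ± 0.14 for *Tlr13*, 10.02 ± 0.15 for *Tlr7* and 9.29 ± 0.04 for *Tlr1*. *Tlr8* (8.48 ± 0.37), *Tlr4* (8.06 ± 0.13) and *Tlr9* (7.73 ± 0.23) followed. *Tlr6* and *Tlr3* came next at 6.92 ± 0.10 and 6.91 ± 0.07, and *Tlr5* was last at 1.21 ± 0.47. The libraries of *Tlr8* and *Tlr4*, of *Tlr4* and *Tlr9*, and of *Tlr6* and *Tlr3* overlapped, so the order within these pairs was not larger than the spread, whereas all other neighbours were separated. After 6 hr of LPS the order in WT BMDMs was *Tlr2* (11.90 ± 0.04), *Tlr7* (11.17 ± 0.07), *Tlr1* (10.91 ± 0.05), *Tlr3* (9.92 ± 0.14), *Tlr8* (9.89 ± 0.11), *Tlr13* (9.42 ± 0.08), *Tlr6* (8.47 ± 0.06), *Tlr9* (8.18 ± 0.22) and *Tlr4* (8.03 ± 0.12), again with *Tlr5* at the bottom. Here the libraries of *Tlr3* and *Tlr8*, of *Tlr6* and *Tlr9*, and of *Tlr9* and *Tlr4* overlapped. *Tlr3* had moved up the order and *Tlr13* down it.

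Each tested member changed at one time at least after LPS in WT BMDMs. Of the 9 members with a mean high enough to be tested (a mean rlog of at least 2.32, that of 5 counts), 3 rose and 1 fell at 1 hr, 5 rose and 2 fell at 3 hr, 7 rose and 1 fell at 6 hr, and 6 rose and 3 fell at 9 hr (limma with Benjamini-Hochberg adjusted p under 0.05 over all genes). Such calls were frequent in these cells. Of all genes tested, 17.3% rose and 16.6% fell at 1 hr, 32.5% and 35.3% at 3 hr, 38.7% and 39.2% at 6 hr, and 35.9% and 35.6% at 9 hr. At 6 hr, 6 of the 9 members rose by at least 1, as did 13.7% of all genes, and the median difference was 1.28 for the members and −0.02 for all genes. Quantile normalization moved the median of all genes by 0.10 at 6 hr and 0.10 at 9 hr. Some members moved further, with 6-hr differences of 0.53 for *Tlr2*, 0.46 for *Tlr7*, 1.16 for *Tlr1* and −1.51 for *Tlr13*. These were still called, but *Tlr2* and *Tlr7* no longer rose by at least 1. At 1 hr it turned the calls over all genes from 2264 higher and 2179 lower to 1892 higher and 3094 lower.

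**Figure D1:**
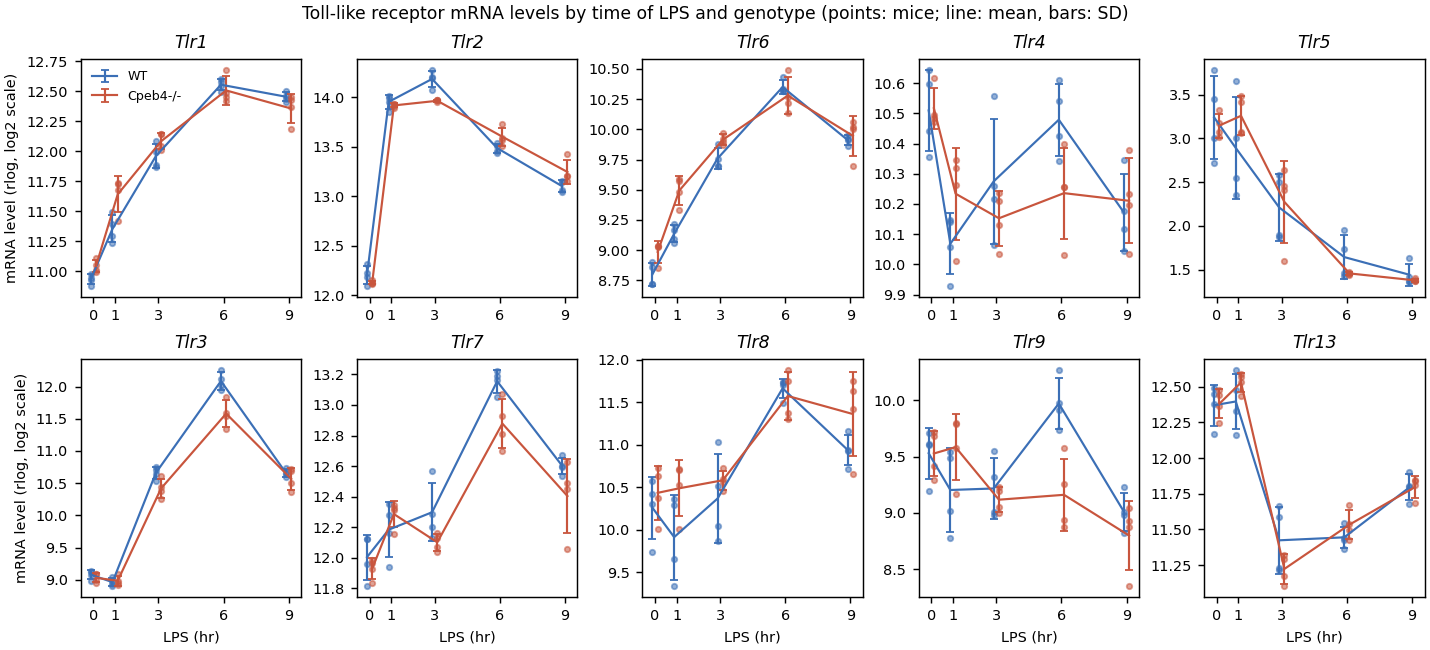
mRNA level of each Toll-like receptor (rlog, log2 scale; each panel has its own axis) against hours of LPS in WT and Cpeb4-/- BMDMs, with 1 point per mouse, lines through the means of 4 mice and bars of 1 SD. *Tlr2* was highest at 3 hr and *Tlr1*, *Tlr3*, *Tlr6*, *Tlr7* and *Tlr8* at 6 hr in both genotypes, while *Tlr9* was highest at 6 hr in the WT panel only.

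*Tlr2* had the largest change of any member at 1 hr. Its rlog in WT mice 25, 69, 87 and 88 was 12.22, 12.09, 12.19 and 12.31 untreated and 13.96, 14.01, 13.86 and 13.99 at 1 hr, a rise of 1.75 (SE 0.05, limma adjusted p = 3.7e-16). It reached 14.07 to 14.28 at 3 hr and then fell, to 13.44–13.54 at 6 hr and 13.04–13.16 at 9 hr. None of the treated libraries overlapped the untreated ones. Back-transformed and scaled to the 3-hr mean, the untreated level was 25.3% ± 1.6 (SD, n = 4) and the 9-hr level 47.1% ± 2.0. The further rise from 1 to 3 hr (0.23) and the fall from 6 to 9 hr (−0.39) were no longer called after quantile normalization, where they were 0.0030 (adjusted p = 0.97) and −0.08 (adjusted p = 0.25).

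*Tlr1* and *Tlr6*, which encode the partners of TLR2, rose by less at 1 hr and in parallel. *Tlr1* went from 10.95, 10.93, 10.88 and 10.98 untreated to 12.58, 12.55, 12.49 and 12.60 at 6 hr, in the mouse order above (difference 1.62, SE 0.05). *Tlr6* went from 8.86, 8.72, 8.72 and 8.90 to 10.31, 10.32, 10.33 and 10.43 (difference 1.55, SE 0.06). Both had passed the test already at 1 hr, with differences of 0.42 and 0.33, and had reached 66.3% and 66.4% of their maximum at 3 hr. Over the 10 group means (genotype by time) their rlog values had r = 0.98, a description over points that share mice and normalization. The genes lie side by side on chromosome 5, at chr5:64924679-64933563 and chr5:64952031-64960097 (GRCm38, the build called mm10, minus strand), and 454 of the stretches of 50 bases, the read length, occur in both (14.8% of those in *Tlr1* and 12.5% of those in *Tlr6*). How reads from these stretches were assigned is not given in the sources used here, so the likeness of these 2 genes is uncertain to that extent.

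Unlike *Tlr1*, *Tlr2* and *Tlr6*, *Tlr4* did not rise after LPS. Its rlog in WT BMDMs was 10.64, 10.44, 10.36 and 10.60 untreated and 10.14, 10.15, 9.93 and 10.06 at 1 hr, so that no library overlapped, and the difference of −0.44 (SE 0.09) passed the test (limma adjusted p = 0.00084). At 3 hr it was −0.23 and at 9 hr −0.34, both called. The first call was lost without the filter on low values. It was also lost without mouse 25 (limma adjusted p = 0.23), 69 (0.077) or 87 (0.054). The second was lost without mouse 25 (limma adjusted p = 0.053). The receptor for LPS therefore showed its lowest WT mean, 73.5% ± 5.1 of the untreated one, after 1 hr. *Tlr5* had too low a mean for the test over time. Its rlog was 3.78, 3.45, 2.72 and 3.00 in untreated WT libraries and 1.63, 1.41, 1.35 and 1.37 at 9 hr, with no overlap, and the 9-hr range in Cpeb4-/- BMDMs was 1.36 to 1.40.

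**Figure D2:**
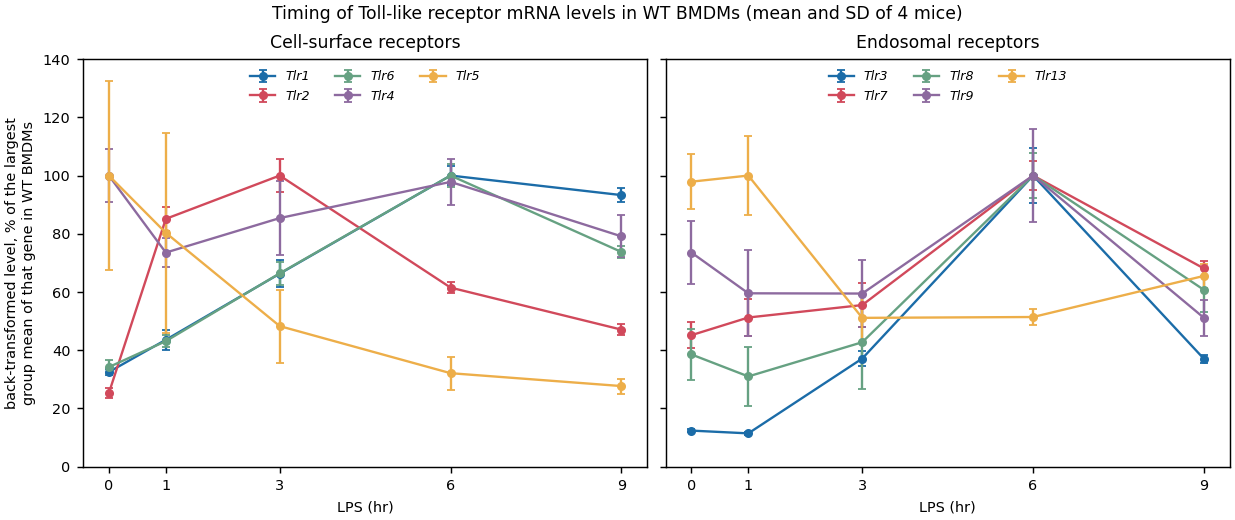
Back-transformed level of each receptor mRNA in WT BMDMs as a percentage of that gene's largest group mean against hours of LPS (points: means of 4 mice; bars: SD), with cell-surface receptors on the left and endosomal ones on the right. *Tlr2* reached 85.1% at 1 hr, the *Tlr1* and *Tlr6* lines nearly coincided up to 6 hr, and *Tlr3*, *Tlr7*, *Tlr8* and *Tlr9* all had their maximum at 6 hr.

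Of the endosomal receptors, *Tlr3*, *Tlr7*, *Tlr8* and *Tlr9* had their WT maximum at 6 hr, as *Tlr1* and *Tlr6* did. *Tlr3* was 9.14, 9.12, 8.98 and 9.08 untreated and 8.98, 9.04, 8.91 and 8.93 at 1 hr, a difference of −0.11 that was not called (limma adjusted p = 0.18). It then rose to 10.53–10.75 at 3 hr and to 12.02, 12.12, 11.94 and 12.26 at 6 hr. The 6-hr difference of 3.01 (SE 0.06) was the largest of any member at any time in WT BMDMs, and every library at 6 hr lay above every library at the other 4 times. By 9 hr the level had returned to 10.59–10.73, which was 37.0% ± 1.5 of the 6-hr mean. Another annotated gene, *Gm45542*, overlaps *Tlr3* (chr8:45395665-45411080, minus strand). The library kit does not mark strand, so reads from the overlap cannot be told apart by strand.

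*Tlr7* and *Tlr8*, neighbours on the X chromosome, had their maximum at the same time as *Tlr3* with smaller amplitudes. *Tlr7* was 12.12, 11.96, 11.82 and 12.12 untreated and 13.16, 13.22, 13.05 and 13.19 at 6 hr (difference 1.15, SE 0.09), and *Tlr8* was 10.58, 10.30, 9.74 and 10.42 untreated and 11.70, 11.74, 11.50 and 11.72 at 6 hr (difference 1.40, SE 0.23). The groups did not overlap for either gene. At 9 hr *Tlr7* was 0.60 and *Tlr8* 0.68 above untreated, and both were called. For *Tlr7* the smaller 3-hr difference of 0.29 was lost without mouse 69 (adjusted p = 0.053) and became −0.17 after quantile normalization, under which the 9-hr difference was also lost (0.18, adjusted p = 0.079).

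*Tlr9* rose only at 6 hr. In WT BMDMs it was 9.71, 9.60, 9.19 and 9.61 untreated, 9.01, 9.32, 8.99 and 9.55 at 3 hr, 9.91, 10.27, 9.73 and 9.97 at 6 hr and 8.98, 9.01, 8.82 and 9.23 at 9 hr. The 6-hr libraries lay above every library of the other times, while those of the other times overlapped one another in part. Against untreated cells the 6-hr difference was 0.44 and the 9-hr difference −0.52; the first was lost without mouse 69 (adjusted p = 0.095) and the second without mouse 25 (adjusted p = 0.059). Between consecutive times *Tlr9* rose by 0.76 from 3 to 6 hr (SE 0.17, limma adjusted p = 5.0e-04) and dropped by 0.96 from 6 to 9 hr (SE 0.17, adjusted p = 6.1e-05).

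*Tlr13* went the other way. It was 12.45, 12.49, 12.17 and 12.38 untreated and 11.23, 11.59, 11.22 and 11.66 at 3 hr (difference −0.95, SE 0.10), with no overlap. At 1 hr the difference was 0.03 and was not called. It stayed at 51.4% ± 2.7 of its maximum at 6 hr and was the single member that rose from 6 to 9 hr, by 0.35, a call lost without mouse 88 (0.29, adjusted p = 0.065). In the same interval 7 of the 9 tested members fell, whereas 23.5% of all genes rose and 27.9% fell. For the earlier intervals, 5 of 9 members changed from 1 to 3 hr (4 higher, 1 lower) and 7 of 9 from 3 to 6 hr (6 higher, 1 lower), against 60.1% and 63.7% of all genes.

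The promoters of 3 members with different timing are shown for comparison: *Tlr2*, the member with the largest change at 1 hr (chr3:83841559-83841858, minus strand), *Tlr3*, the member with the largest rise (chr8:45410331-45410630, minus strand), and *Tlr9*, the one that differed most between genotypes (chr9:106222348-106222647, plus strand). The sequences are from RefSeq (GRCm38.p6), 250 bases before to 50 after the start site, 5′ to 3′. Capitals mark matches, on either strand, to the NF-kB consensus, the core AANNGAAA of elements bound by interferon regulatory factors (IRFs), the AP-1 site TGANTCA and the site GAGGAAGT of the myeloid factor PU.1.
*Tlr2*: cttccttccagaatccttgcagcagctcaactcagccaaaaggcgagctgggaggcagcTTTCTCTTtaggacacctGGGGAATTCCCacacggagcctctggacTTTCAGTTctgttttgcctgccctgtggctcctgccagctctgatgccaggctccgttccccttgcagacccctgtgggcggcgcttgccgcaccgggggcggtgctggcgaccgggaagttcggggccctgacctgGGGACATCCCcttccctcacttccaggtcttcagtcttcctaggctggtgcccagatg
*Tlr3*: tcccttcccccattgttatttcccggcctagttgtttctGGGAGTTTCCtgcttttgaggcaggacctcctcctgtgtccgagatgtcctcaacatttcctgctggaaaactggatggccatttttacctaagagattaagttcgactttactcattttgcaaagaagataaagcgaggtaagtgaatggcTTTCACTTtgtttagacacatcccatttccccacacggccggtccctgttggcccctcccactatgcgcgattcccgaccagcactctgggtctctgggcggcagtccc
*Tlr9*: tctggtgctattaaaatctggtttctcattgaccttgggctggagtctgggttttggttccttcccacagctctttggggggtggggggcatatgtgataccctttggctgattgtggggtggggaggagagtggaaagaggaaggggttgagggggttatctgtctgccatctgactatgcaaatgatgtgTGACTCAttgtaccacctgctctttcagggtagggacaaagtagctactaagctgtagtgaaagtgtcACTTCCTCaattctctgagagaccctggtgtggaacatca
The *Tlr2* window held 3 NF-kB matches, of which those beginning 173 and 172 bases before the start overlap, and 2 IRF cores. The *Tlr3* window held 1 NF-kB match and, 59 bases before the start, 1 IRF core. *Tlr9* had neither, but had an AP-1 site 58 bases before the start and a PU.1 site within the 50 bases after it. Of the 32851 promoters of the same length, 8.46% held the NF-kB consensus, 23.9% the IRF core, 7.81% the AP-1 site and 3.20% the PU.1 site. The table held 8 of the 10 members; among the others *Tlr6* had 4 IRF cores in 1 of its windows, *Tlr1* had 1 IRF core and 1 PU.1 site in separate windows, and *Tlr5*, *Tlr8* and *Tlr13* had no match. These are matches of letters, and binding was not measured.

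Cpeb4-/- BMDMs went through a similar course. Against their own untreated libraries, 4 of the 9 tested members rose and 1 fell at 1 hr, 4 rose and 3 fell at 3 hr, 6 rose and 3 fell at 6 hr, and 6 rose and 3 fell at 9 hr. Of all genes, 23.8% rose and 20.0% fell at 1 hr, 34.4% and 36.9% at 3 hr, 39.0% and 40.1% at 6 hr, and 36.4% and 36.4% at 9 hr. After quantile normalization the calls over all genes at 1 hr went from 3121 higher and 2627 lower to 2449 higher and 3977 lower, and the median of all genes moved by 0.12 at 6 hr. At 1 hr *Tlr1*, *Tlr2*, *Tlr6* and *Tlr7* rose and *Tlr4* fell, and at 3 hr *Tlr1*, *Tlr2*, *Tlr3* and *Tlr6* rose and *Tlr4*, *Tlr9* and *Tlr13* fell. At both later times *Tlr1*, *Tlr2*, *Tlr3*, *Tlr6*, *Tlr7* and *Tlr8* rose and *Tlr4*, *Tlr9* and *Tlr13* fell. Of these calls, those of *Tlr7* at 1 and 9 hr were lost after quantile normalization (adjusted p = 0.10 and 0.24), and that of *Tlr9* at 3 hr without the filter on low values or without mouse 3 or 62 (adjusted p up to 0.15). The 6-hr differences in Cpeb4-/- BMDMs were 2.55 for *Tlr3*, 1.47 for *Tlr2*, 1.46 for *Tlr1*, 1.29 for *Tlr6*, 1.14 for *Tlr8*, 0.95 for *Tlr7*, −0.85 for *Tlr13*, −0.28 for *Tlr4* and −0.37 for *Tlr9*. After quantile normalization those of *Tlr2*, *Tlr8*, *Tlr7* and *Tlr13* were 0.78, 0.85, 0.35 and −1.38, all still called.

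*Tlr9*, higher than untreated at 6 hr in WT, was lower at 6 hr in Cpeb4-/- BMDMs, though that call (limma adjusted p = 0.045) was lost in 6 of 11 alternatives. In Cpeb4-/- mice 2, 3, 55 and 62 it was 9.42, 9.72, 9.30 and 9.68 untreated, 9.00, 9.19, 9.23 and 9.05 at 3 hr, 8.88, 9.25, 9.57 and 8.94 at 6 hr and 8.35, 8.88, 9.04 and 8.92 at 9 hr. Its Cpeb4-/- mean declined from 95.4% of the maximum untreated to 58.0% at 9 hr, with no maximum at 6 hr, and the change from 3 to 6 hr was 0.04 (SE 0.16, limma adjusted p = 0.83). The 6-hr difference in Cpeb4-/- BMDMs was no longer called without mouse 3 (adjusted p = 0.14) or mouse 62 (−0.24, adjusted p = 0.28), without the filter on low values (adjusted p = 0.082), without the variance trend (0.059), after quantile normalization (−0.31, adjusted p = 0.083) or with all 40 libraries in one fit (adjusted p = 0.053). From 3 to 6 hr, 7 of the 9 members changed in Cpeb4-/- BMDMs (6 higher, 1 lower), as did 64.4% of all genes. From 6 to 9 hr, 1 rose and 4 fell, against 25.6% and 28.0%.

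The direct comparison of the genotypes gave its clearest differences at 6 hr. No member was called in untreated cells by limma (2 had an unadjusted p under 0.05), where 1.31% of all genes were, and only *Tlr1* separated the genotypes there, by 0.11 (limma adjusted p = 0.24); 10.5% of all genes did so. The untreated differences ranged from −0.09 (*Tlr5*) to 0.19 (*Tlr6*). At 6 hr, 4 of the 9 tested members were lower and none was higher in Cpeb4-/- BMDMs, against 9.92% and 6.40% of all genes. Quantile normalization kept these 4 calls and turned those over all genes from 835 higher and 1294 lower to 1026 higher and 995 lower. The level of *Tlr9* was lower by 0.81 (SE 0.14, limma adjusted p = 0.0031), with all 4 Cpeb4-/- libraries (8.88–9.57) below all 4 WT libraries (9.73–10.27). A two-sided exact permutation test of 4 against 4 gave p = 0.029, the smallest it can give. The difference was −0.85 in batch 1 and −0.78 in batch 2. A full separation of the genotypes fixes that p and the sign in each batch, so neither adds further evidence. The same holds below wherever the exact p is 0.029.

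*Tlr3* was the other member whose genotypes separated at 6 hr, and 20.2% of all genes did. The Cpeb4-/- libraries of mice 2, 3, 55 and 62 had 11.59, 11.54, 11.84 and 11.35, all below the lowest WT value of 11.94. The difference was −0.51 (SE 0.09, limma adjusted p = 0.0037, exact permutation p = 0.029), with −0.70 in batch 1 and −0.31 in batch 2. Both the *Tlr9* and the *Tlr3* difference remained under the threshold in all 15 alternative analyses, with adjusted p from 4.0e-04 to 0.043 and from 1.7e-05 to 0.045.

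*Tlr7* and *Tlr4* were lower by less. *Tlr7* was 12.81, 12.93, 13.07 and 12.70 in Cpeb4-/- libraries and 13.05–13.22 in WT (difference −0.28, SE 0.07, limma adjusted p = 0.020, exact permutation p = 0.057). *Tlr4* was 10.26, 10.26, 10.40 and 10.03 against 10.34–10.61 (difference −0.24, SE 0.08, limma adjusted p = 0.047, exact permutation p = 0.057). The genotypes overlapped for both genes, and in batches 1 and 2 the differences were −0.36 and −0.19 for *Tlr7* and −0.37 and −0.11 for *Tlr4*. The *Tlr7* call was lost without WT mouse 69 (adjusted p = 0.057) or 88 (0.050) or Cpeb4-/- mouse 2 (0.062). The *Tlr4* call was lost in 11 of 15 alternatives, among them the replicate block of the mouse (adjusted p = 0.053) and the removal of WT mouse 25, 69 or 88 or of Cpeb4-/- mouse 2, 3 or 62, with adjusted p from 0.069 to 0.13.

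*Tlr8*, *Tlr13*, *Tlr1*, *Tlr6* and *Tlr2* were not called at 6 hr. *Tlr8* was 11.37, 11.74, 11.88 and 11.30 in Cpeb4-/- libraries against 11.50–11.74 in WT, a difference of −0.09 (95% interval −0.33 to 0.15), and *Tlr13* differed by 0.09 (95% interval −0.03 to 0.21). *Tlr2* had a difference of the opposite sign, 0.12 (95% interval 0.01 to 0.22, limma adjusted p = 0.14), which was called after quantile normalization (0.21, adjusted p = 0.015).

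**Figure D3:**
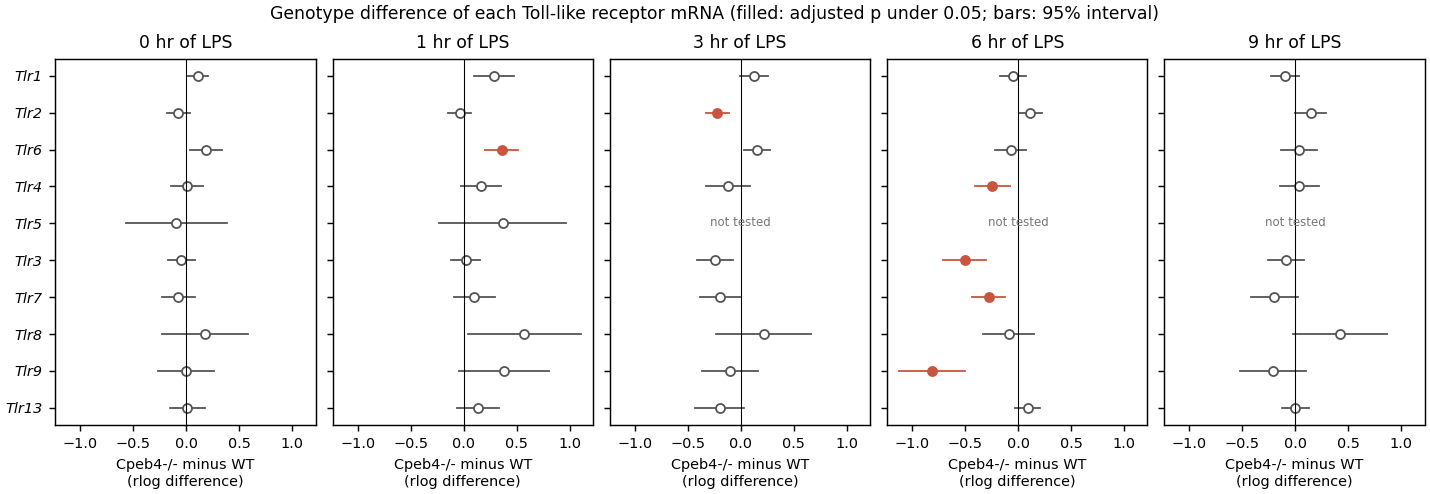
Difference in rlog between Cpeb4-/- and WT BMDMs for each receptor mRNA at each time (points: limma estimates from 8 libraries; bars: 95% intervals; filled red: adjusted p under 0.05). *Tlr9* (−0.81) and *Tlr3* (−0.51) stood farthest from zero at 6 hr, and the *Tlr5* mean was too low for a test from 3 hr on.

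At the other times fewer members were called. At 1 hr *Tlr6* was higher in Cpeb4-/- BMDMs, at 9.33, 9.59, 9.57 and 9.48 in mice 2, 3, 55 and 62 against 9.06–9.22 in WT (difference 0.36, SE 0.07, limma adjusted p = 0.038, exact permutation p = 0.029); 0.976% of all genes were called higher and 15.7% separated the genotypes. None of the other 9 members was called at 1 hr. Their differences were 0.57 for *Tlr8* (95% interval 0.04 to 1.11), 0.38 for *Tlr9*, 0.37 for *Tlr5*, 0.29 for *Tlr1*, 0.17 for *Tlr4*, 0.13 for *Tlr13*, 0.10 for *Tlr7*, 0.02 for *Tlr3* and −0.04 for *Tlr2*. The median over the 10 members was 0.23 at 1 hr, beside 0.02 over all genes, and −0.09 over the 9 tested at 6 hr. At 3 hr *Tlr2* was lower, at 13.97, 13.97, 13.97 and 13.95 against 14.07–14.28 (difference −0.22, SE 0.05, limma adjusted p = 0.044, exact permutation p = 0.029); 1.87% of all genes were called lower and 13.6% separated the genotypes. The uncalled members at 3 hr ranged from −0.24 (*Tlr3*) to 0.21 (*Tlr8*). At 9 hr no member was called by limma (1 had an unadjusted p under 0.05), while 7.91% of all genes were, and the differences ranged from −0.21 for *Tlr9* (95% interval −0.52 to 0.10) to 0.42 for *Tlr8* (95% interval −0.02 to 0.86). In batches 1 and 2 the *Tlr6* difference was 0.34 and 0.37 and the *Tlr2* difference −0.28 and −0.17. The *Tlr6* call was lost without any of 6 mice (Cpeb4-/- 3, 55 or 62; WT 25, 87 or 88; adjusted p from 0.055 to 0.13) and the *Tlr2* call without any of 6 (Cpeb4-/- 2, 3, 55 or 62; WT 25 or 69; adjusted p from 0.077 to 0.13). With the mouse as replicate block, 3 members were called at 1 hr (*Tlr1*, *Tlr6* and *Tlr8*) and 2 at 3 hr (*Tlr2* and *Tlr3*). This setting, fitted on all 40 libraries, called 2274 genes higher and 2049 lower of 13103 at 1 hr, and 676 and 717 at 3 hr. Without Cpeb4-/- mouse 2, 2 members were called at 1 hr and 2 at 9 hr (*Tlr2* and *Tlr8*). Calls over all genes were then 405 higher and 316 lower of 13113 at 1 hr, and 2393 and 2182 of 13005 at 9 hr. Without WT mouse 88, 4 members were called at 3 hr (*Tlr1*, *Tlr2*, *Tlr6* and *Tlr8*), beside 1415 genes higher and 1169 lower of 13079. The main fit had 128 and 123 at 1 hr, 237 and 244 at 3 hr, and 610 and 419 at 9 hr.

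Whether the response to LPS itself differed was tested as the interaction of genotype and time over the 40 libraries. At 6 hr the rise of *Tlr3* was smaller in Cpeb4-/- BMDMs by 0.46 (SE 0.11, limma adjusted p = 0.023), the single member called, against 2.94% of all genes. Followed within each mouse, *Tlr3* rose by 3.01 on average in WT (2.89 to 3.18) and by 2.55 in Cpeb4-/- mice (2.39 to 2.75), with no overlap (two-sided exact permutation p = 0.029, or 0.11 adjusted over 20 such comparisons). *Tlr2* was the other of 2 members, out of 10, that did not overlap, and it rose by 0.19 more in Cpeb4-/- mice with the same p, beside 11.8% of all genes. The *Tlr3* interaction call was lost without WT mouse 69 or 88 or Cpeb4-/- mouse 2, 3 or 62 (adjusted p from 0.056 to 0.13). Quantile normalization, which turned the calls over all genes from 118 higher and 267 lower to 102 higher and 125 lower, left −0.37 (adjusted p = 0.057). For *Tlr9* the interaction was −0.81 (SE 0.24, limma adjusted p = 0.060). It passed the threshold with batch as a covariate (adjusted p = 0.047), with the mouse as replicate block (adjusted p = 0.0049) and without Cpeb4-/- mouse 55 (−1.03, adjusted p = 0.025). From 3 to 6 hr, *Tlr9* changed by 0.76 in WT mice (0.42 to 0.95) and by 0.04 in Cpeb4-/- mice (−0.12 to 0.35), again with no overlap. For this interval 3 of 10 members did not overlap, each with an exact permutation p of 0.029 (0.11 adjusted over the 20), and 9.78% of all genes did not. The other two were *Tlr2*, whose change was 0.34 higher in Cpeb4-/- mice, and *Tlr6*, whose change differed by −0.23. No member was called by limma for the interaction at 1, 3 or 9 hr (0, 0 and 2 had an unadjusted p under 0.05), where 0.00763%, 0.206% and 1.76% of all genes were.

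Some measured features of the libraries moved with these results. The deviations of single libraries from the mean of their genotype and time were shared by several receptors and by *Cpeb4*. Over the 40 libraries the deviations of *Tlr8* and *Cpeb4* had r = 0.98 and those of *Tlr9* and *Cpeb4* 0.92. For *Tlr7* it was 0.88, *Tlr13* 0.87, *Tlr4* 0.81, *Tlr1* 0.70, *Tlr6* 0.62, *Tlr2* 0.47, *Tlr5* 0.44 and *Tlr3* 0.38. Over the other 13102 genes the median r with *Cpeb4* was 0.07. Of these genes, 0.0153% had an r as high as that of *Tlr8* and 3.27% as high as that of *Tlr9*. The shares were 6.11% for *Tlr7*, 7.63% for *Tlr13*, 11.9% for *Tlr4* and 18.7% for *Tlr1*. They were 22.9% for *Tlr6*, 30.8% for *Tlr2* and 34.9% for *Tlr3*. Within the 20 Cpeb4-/- libraries alone the values for *Tlr8* and *Tlr9* were 0.99 and 0.91. *Csf1r*, *Cd68*, *Fcgr1* and *Lyz2*, 4 of the 7 macrophage markers, were also lower in Cpeb4-/- BMDMs at 6 hr, with differences of −0.25, −0.26, −0.28 and −0.38 (limma adjusted p from 0.0017 to 0.019). Of all genes, 9.92% were called lower at this time. The differences of *Adgre1*, *Itgam* and *Mertk*, the rest of that list, are not given here, so the 4 do not stand for the whole list. The summed level of the 7 macrophage markers (log2 of the summed back-transformed values) was below the WT range at every time, with 18.71–18.94 against 19.02–19.15 at 6 hr and 18.55–18.82 against 18.88–19.21 untreated. This sum is mostly the level of *Lyz2* (mean rlog 18.2, next *Adgre1* with 15.9), and *Mertk* (9.66) adds little. Among single genes, 20.2% separated the genotypes at 6 hr and 10.5% did so untreated. The summed level of the 5 dendritic cell markers was also below the WT range at 6 hr (6.34–6.66 against 6.75–7.11) and at 9 hr (5.96–6.06 against 6.17–6.59), and in WT BMDMs it was 5.35–6.10 untreated and 7.07–7.26 at 3 hr of LPS. It is mostly the level of *Xcr1* (mean rlog 6.04, next *Zbtb46* with 2.92), so it says little of the list as a whole. At 9 hr, 16.9% of all genes separated the genotypes. At 1 hr the summed B cell markers (2.40–2.80 against 2.10–2.38) and the summed stromal and endothelial markers (3.57–3.73 against 3.21–3.47) were above the WT range, and 15.7% of all genes separated. Both sums lie near the floor: 0 of the 4 B cell and 1 of the 4 stromal and endothelial markers had a mean that reached the filter. All marker lists were examined at every time, and only those that separated are given. Fewer cells of a type and less RNA per cell cannot be told apart in bulk samples, and the part of these features in the receptor differences was not tested.

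**Figure D4:**
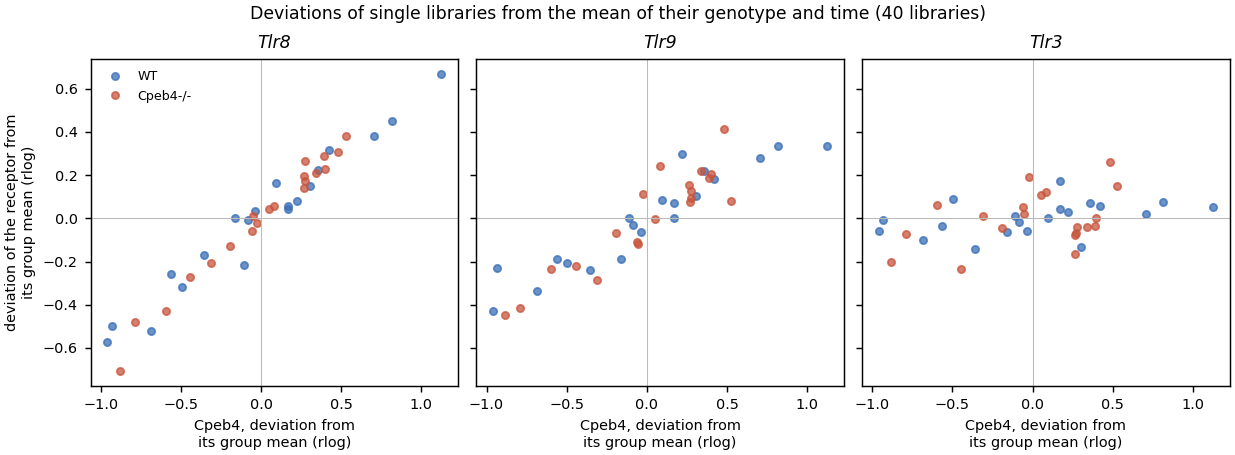
Deviation of *Tlr8*, *Tlr9* and *Tlr3* (vertical axis, rlog) against that of *Cpeb4* (horizontal axis, rlog) from the mean of the same genotype and time, with 1 point for each of the 40 libraries. *Tlr8* (r = 0.98) and *Tlr9* (r = 0.92) followed *Cpeb4* in both genotypes and *Tlr3* (r = 0.38) did so weakly.

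The 3′-UTRs of the 2 receptors with the clearest genotype differences were unlike. CPEs (TTTTAT or TTTTAAT or TTTTAAAT or TTTTACT or TTTTCAT or TTTTAAGT or TTTTGT, counted on the transcribed strand, some overlapping) are the elements CPEB proteins recognise, and the AU-rich element (ARE) core ATTTA is bound by decay factors. In the longest annotated 3′-UTR of *Tlr3*, 1248 bases, there were 13 CPEs and 5 ARE cores, and 9.35% and 21.4% of the 21112 genes had as many. Of the CPEs, 6 were of the form TTTTAT, and those printed here lie nearest to the start and the end of the 3′-UTR, 279 and 1093 bases after the stop codon, with the motif in capitals.
*Tlr3*, first TTTTAT: ttttaaatatTTTTATataaataaga
*Tlr3*, last TTTTAT: atagatggcaTTTTATtacttgataa
*Tlr9*, with a 3′-UTR of 273 bases, had 0 CPEs and 0 ARE cores. *Tlr4* had 6 CPEs and 2 ARE cores in 1321 bases, *Tlr7* 1 and 1 in 407 bases, and *Tlr6* none of either in 1111 bases. *Tlr2*, *Tlr5* and *Tlr13* had 1 CPE and no ARE core each, and *Tlr1* and *Tlr8* had neither. Over all genes, 72.6% had a CPE and 65.0% an ARE core. The match says nothing of binding, which these data did not measure.

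The other genes of the pathway also changed in WT BMDMs, from a list of 39 with known roles. At 1, 3, 6 and 9 hr, 13, 19, 24 and 21 of the 39 rose and 2, 8, 8 and 9 fell, next to the shares of all genes given above. Among co-receptors, *Cd14* (1.27 at 3 hr), *Ly96*, which encodes MD-2 (0.79 at 3 hr), and *Lbp*, the carrier of LPS (0.63 at 9 hr), rose. Among the chaperones and proteases of endosomal receptors, *Slc15a3*, a lysosomal peptide transporter, rose by 2.45 at 9 hr, while *Cnpy3*, a chaperone that helps Toll-like receptors leave the endoplasmic reticulum, fell by 0.48 at 3 hr and *Lgmn*, a lysosomal protease, fell by 0.33 at 9 hr. All 5 adaptors rose at 3 and at 6 hr, with 1.41 for *Myd88* at 3 hr, 0.93 for *Ticam1*, which encodes TRIF, at 9 hr, and 1.50 for *Pik3ap1* at 9 hr.

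Kinases and inhibitors of the pathway moved in both directions. *Ikbke* (1.69 at 9 hr) and *Irak2* (1.58 at 3 hr), which encode kinases, rose, and *Tab1*, encoding a partner of the kinase TAK1, fell by 1.37 at 3 hr. Of the 7 inhibitors, 4 rose and 3 fell at 9 hr. *Tnfaip3*, encoding the ubiquitin-editing enzyme A20, rose by 3.42 at 3 hr, and *Irak3*, encoding a kinase-like brake on MyD88 signalling, by 2.48 at 9 hr. *Il1rl1*, the IL-33 receptor, which is known to dampen MyD88 signalling, fell by 3.34 at 9 hr.

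**Figure D5:**
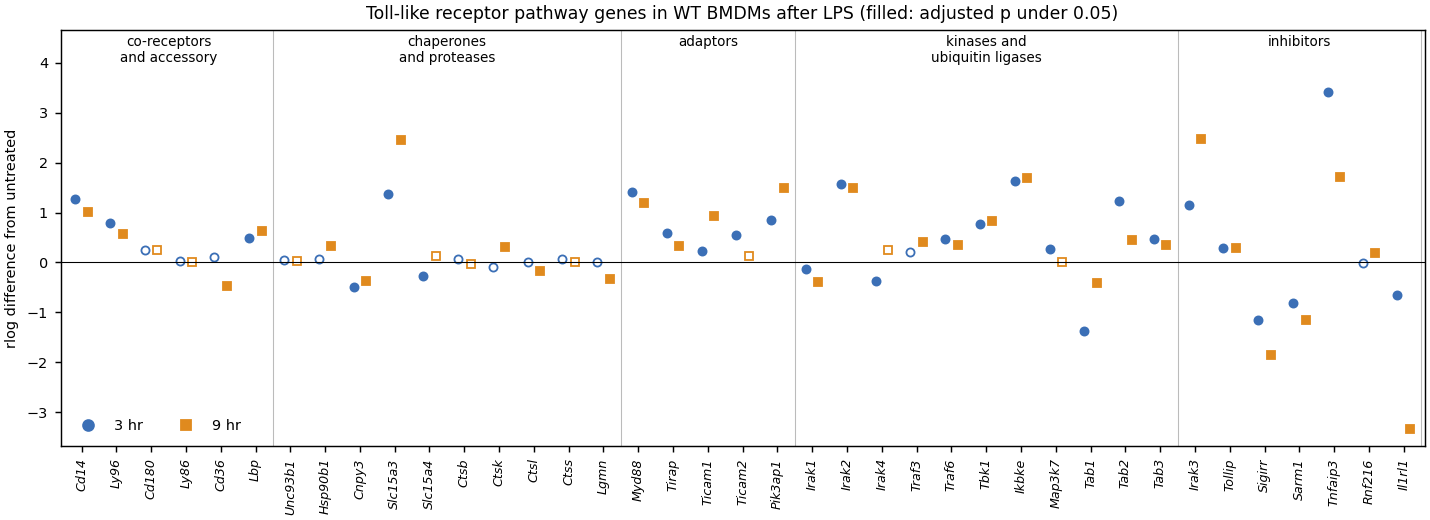
Difference in rlog from untreated WT BMDMs at 3 hr (circles) and 9 hr (squares) of LPS for the 39 pathway genes, grouped by role (filled: limma adjusted p under 0.05). *Tnfaip3* at 3 hr (3.42) and *Il1rl1* at 9 hr (−3.34) marked the extremes.

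Between genotypes at 6 hr, 7 of the 39 pathway genes were lower and 2 higher in Cpeb4-/- BMDMs, beside the 9.92% and 6.40% of all genes. The 6 with the lowest adjusted p were *Ly86*, a partner of the receptor RP105 (−0.32, SE 0.05, limma adjusted p = 0.0017), *Ctsk*, a cathepsin (0.53, SE 0.10), *Ikbke* (−0.26, SE 0.05), *Irak2* (−0.19, SE 0.04), *Pik3ap1* (−0.35, SE 0.08) and *Tnfaip3* (−0.23, SE 0.05). For each of these 6 the genotypes did not overlap, as for 20.2% of all genes. The 6 were picked by their adjusted p in this same comparison, so their separation adds no further evidence. A full separation also fixes the sign in batches 1 and 2. The *Tnfaip3* difference was lost after quantile normalization (−0.10, adjusted p = 0.15), and that of *Pik3ap1* without the filter on low values (adjusted p = 0.073), with all 40 libraries in one fit (0.12) and with the mouse as replicate block (0.11).

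The genes whose group means ran most like those of each receptor were found by Pearson's r over the 10 group means among 12951 genes, which share mice and normalization. For *Tlr2* they were *Irf1* (r = 0.99), *Nfkbie* (0.99) and *Olr1* (0.98), and for *Tlr3* they were *Ube2e1*, *Lap3* and *Ccz1* (r = 0.996, 0.995 and 0.995). *Zfp558*, *Tnfrsf1b* and *Cybb* ran most like *Tlr1*, and *Lims1*, *Ptpn11* and *Copb2* most like *Tlr6*. *Cdk14*, *Spop* and *Col9a3* accompanied *Tlr7*, *Klhl28*, *Trappc8* and *Ids* accompanied *Tlr8*, and *Ctns*, *Zmat3* and *Trp53inp1* accompanied *Tlr13*, all with r from 0.98 to 0.99. *Tlr9* and *Tlr4* had the least close company, with *Smpd4* (r = 0.90), *Mbnl1* (0.89) and *Gpm6b* (0.86) for *Tlr9* and *Fgfbp3* (0.91), *Tmem181c-ps* (0.89) and *4930426L09Rik* (0.88) for *Tlr4*.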

How the data were processed

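The deposited table held 1 column for each of the 40 libraries. According to the submitters' processing notes and the study's methods, the authors aligned reads of 50 bases to mm10 with STAR 2.3.0e, counted them per gene with featureCounts and transformed the counts with DESeq2 to rlog values, which are normalized and on a log2 scale. The libraries were made with 8 cycles of amplification and a kit that does not keep strand. Read counts were not used here, so the depth of each library is unknown and no counting interval is given. The table held 27179 genes, with rlog from −2.40 to 19.4, and 6395 genes were at 0 in every library.

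From these log2 values, differences were tested with limma 3.58.1 in R 4.3.3 (lmFit, eBayes with trend) over genes whose mean, taken across the fitted libraries, reached the log2 of 5, with Benjamini-Hochberg adjustment over all genes tested and a threshold of 0.05. WT and Cpeb4-/- time courses were fitted on 20 libraries each, genotypes on the 8 libraries of a time and the interaction on all 40. Single genes were also compared by a two-sided exact permutation test of 4 against 4 mice, whose smallest p is 0.0286. The 5 libraries of a mouse came from the same animal, and their deviations from group means had a median r of 0.29 (68 of 80 pairs over 0.1), against −0.09 between mice. Taking deviations from the mean of 4 mice makes the value between mice negative by itself, so it is no independent baseline. Because libraries of a mouse shared deviations, the mouse was used as replicate block in an alternative. For the time courses and the interaction the mouse was a fixed term. For the genotype comparisons this alternative was fitted on all 40 libraries, with a correlation shared by the libraries of a mouse. Its genotype calls thus differ from the main fit also because the spread was estimated over all times together. The fits were also run on simulated data with independent noise. Those data held no deviations shared within a mouse or between genes, so that run cannot show how the fits handle them. Per-length levels and positions used GENCODE vM21 (GRCm38), and promoters used RefSeq (GRCm38.p6); Python 3.11.15 drew the figures.

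The members, the pathway list and the marker lists were chosen with earlier results of these data known. The rule for named genes called for all members in each comparison in which they were tested; where several were not called, the text gives them by counts or by the range of their differences. From each pathway group the 3 called genes with the largest WT difference at 3 or 9 hr are named, and the 6 with the lowest adjusted p between genotypes at 6 hr. For likeness of pattern the 3 genes with the highest r are named.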

Additional observations from a re-analysis of the deposited data

Results flagged for a closer look

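In 4 of the 100 groups of 4 mice (10 receptors, 10 groups), 1 library stood apart by Dixon's test at the 95% level, about as many as the 1 in 20 that chance gives. *Tlr2* in Cpeb4-/- mouse 62 at 3 hr was 13.95 against 13.97–13.97 in the other 3, a gap that is large only beside their narrow range. *Tlr4* in Cpeb4-/- mouse 3 untreated was 10.62 (others 10.47–10.50), *Tlr6* in Cpeb4-/- mouse 55 untreated was 8.85 (others 9.03–9.04), and *Tlr7* in Cpeb4-/- mouse 2 at 1 hr was 12.16 (others 12.31–12.34). The response of *Tlr3* to 6 hr of LPS differed between genotypes by −0.46 in the interaction test (limma adjusted p = 0.023).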

How the results depend on the processing

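Counts of receptors called over time kept within 1.5 times of their value in every alternative analysis. Those between genotypes did not. The count at 1 hr (1) became 0 without the filter on low values and 0 without the variance trend, 2 with all 40 libraries in one fit and 3 with the replicate block, and ranged from 0 to 2 when single mice were left out. The count at 3 hr (1) became 0 without the filter, 0 after quantile normalization, 0 without the trend, 0 with batch as covariate and 2 with the replicate block (0 to 4 without single mice). The count at 6 hr (4) became 2 without the filter and 2 without the trend (2 to 4 without single mice, with 2 left without Cpeb4-/- mouse 2 or WT mouse 69 or 88). The count at 9 hr (0) became 1 with all 40 libraries in one fit, and ranged from 0 to 2. The 6-hr interaction count (1) became 0 after quantile normalization, 2 with batch as covariate and 2 with the replicate block (0 to 3 without single mice). The replicate block changed no other count by over 1.5 times. Calls over all genes moved in these analyses too. With all 40 libraries in one fit they were 2202 higher and 1980 lower of 13103 at 1 hr, and 1180 and 1100 at 9 hr. Without the filter they were 28 and 25 of 20784 at 1 hr. For the 6-hr interaction the replicate block called 333 genes higher and 699 lower of 13103. After quantile normalization the sign changed for *Tlr7* at 3 hr in WT (−0.17), for *Tlr13* at 1 hr in WT (−0.24) and for the *Tlr2* genotype difference at 1 hr (0.03). With single mice left out, uncalled values whose sign changed ranged from −0.0076 to 0.050 for *Tlr13* at 1 hr in WT, from −0.27 to 0.088 for the untreated *Tlr5* genotype difference, from −0.015 to 0.046 for that of *Tlr3* at 1 hr, from −0.19 to 0.00066 for that of *Tlr8* at 6 hr and from −0.057 to 0.099 for *Tlr9* from 3 to 6 hr in Cpeb4-/- BMDMs. The cause of these changes was not tested, other than that without the filter more genes, and without a mouse fewer libraries, entered the fit. With 4 mice a group, an exact test of a single gene cannot go below 0.029, so it cannot pass an adjustment over many genes. With values and no counts, the depth behind the low *Tlr5* values is unknown.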

Other observations

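Single libraries stood away from their group in several receptors at once. WT mouse 88 at 3 hr had *Tlr8* at 11.04 and *Tlr9* at 9.55, the highest of its group, and WT mouse 87 at 1 hr had 9.34 and 8.77, the lowest. Cpeb4-/- mouse 2 at 9 hr was the lowest of its group for *Tlr1* (12.18), *Tlr7* (12.06), *Tlr8* (10.66) and *Tlr9* (8.35). Without Cpeb4-/- mouse 2, *Tlr8* was called higher in Cpeb4-/- BMDMs at 9 hr (limma adjusted p = 0.0014), and with it the difference was not called. Leaving out that mouse moved the calls over all genes at 9 hr from 610 higher and 419 lower to 2393 higher and 2182 lower.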
